A study of Mus musculus with 2 samples.

Results

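The 10 genes described here encode parts of the basement membrane, the thin sheet of matrix under epithelia and around blood vessels, or a protein that binds it. They are the collagen genes *Col4a1*, *Col4a2*, *Col15a1* and *Col18a1*, the laminin chain genes *Lamb1*, *Lama4* and *Lamc1*, the perlecan gene *Hspg2*, the nidogen gene *Nid1* and the matrix-binding gene *Sparc*. They were taken by name from the 13549 genes of the deposited count table, all 10 were found, and all 10 had at least 1000 reads over both libraries. The names were chosen by their reads in the same 2 libraries, with *Sparc* added as a matrix-binding gene that microglia express themselves. The ratios below therefore describe the genes and test nothing.

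A basement membrane holds laminin and type IV collagen networks, each of which assembles from chains of different genes, joined by nidogen and by perlecan, a large heparan sulfate proteoglycan. In the growing retina, vessels spread over the inner surface during the first postnatal days, and vascular cells and glia lay down this matrix. Microglia touch the growing vessels, and they are known to express *Sparc* while this tissue develops.

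Cells were sorted from the retina of CD11c-Cre-gfp;Rosa-TDTom mice at postnatal day 5, from 8 retinas. The labels add 4 female and 4 male, without saying whether these count retinas or animals. Both groups carried the same alleles: Cre and GFP driven by CD11c (the *Itgax* gene product, an integrin chain of myeloid cells), and a TdTomato reporter that stays on once Cre has acted. Cells with GFP and TdTomato (Cd11c-active, 4041 cells) and cells with TdTomato alone (Cd11c-lineage, 5441 cells) gave 1 bulk RNA library each. The labels call both groups microglia, and a sort on these 2 colours would also take any other cell with a history of CD11c promoter use.

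The libraries held 12943998 reads (Cd11c-active) and 13402625 reads (Cd11c-lineage). All 11 microglia markers had reads in both, from 2139 to 92452, and none differed 2-fold between the libraries. With 1 library per group there was no replicate check, so values compare these libraries and not the conditions. Levels are CPM, reads per 1000000 after TMM scaling, and ratios are Cd11c-active over Cd11c-lineage on the log2 scale with 0.5 reads added to each count. Paired values give Cd11c-active first. On library totals every ratio was lower by 0.14, so that values between 0 and 0.14 change sign with the scaling. Each ratio has a 95% counting interval (exact Clopper-Pearson), which covers counting error only. A widened interval follows, from reads divided by 87.3, the factor by which the variance of the ratios of 1978 genes, with 800 to fewer than 1600 reads, exceeded that of independent reads. On that scale a count of 0 in Cd11c-lineage allows up to 262 reads, or 18.6 CPM. In bulk material fewer cells of a type and less RNA per cell cannot be told apart.

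*Col4a1* and *Col4a2* were the members with the most reads in Cd11c-active after *Sparc*, and they are neighbours on opposite strands. Their promoter windows (RefSeq, GRCm38.p6; 250 bases before the annotated start to 50 bases from it) are shown because both genes were high in Cd11c-active and the windows overlap. The *Col4a1* window lies at chr8:11312777-11313076 on the minus strand and the *Col4a2* window at chr8:11312555-11312854 on the plus strand. The *Sparc* window, at chr11:55420031-55420330 on the minus strand, is shown beside them as that of the gene with near-equal reads in both libraries. Capitals mark every match, on either strand, to 4 motifs. The first is the GC box GGGCGG, the core of sites bound by factors of the Sp1 family. The next is CCAAT, the core of sites bound by the factor NF-Y. The third is TATAAA, the box at which the general transcription machinery can assemble. The last is CCCTCCCC, a run known from promoters of type IV collagen genes.
Col4a1: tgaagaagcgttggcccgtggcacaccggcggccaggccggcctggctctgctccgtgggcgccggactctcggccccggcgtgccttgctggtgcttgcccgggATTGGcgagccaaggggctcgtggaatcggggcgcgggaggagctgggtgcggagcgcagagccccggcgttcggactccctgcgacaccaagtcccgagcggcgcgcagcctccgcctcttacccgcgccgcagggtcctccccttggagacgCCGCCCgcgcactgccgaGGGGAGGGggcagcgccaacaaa
Col4a2: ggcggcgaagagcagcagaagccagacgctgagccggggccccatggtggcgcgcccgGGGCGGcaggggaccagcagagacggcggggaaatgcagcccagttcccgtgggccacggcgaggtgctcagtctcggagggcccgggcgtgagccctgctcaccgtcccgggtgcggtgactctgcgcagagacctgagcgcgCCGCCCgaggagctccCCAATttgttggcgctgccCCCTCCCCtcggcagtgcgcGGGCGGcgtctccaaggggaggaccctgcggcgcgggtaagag
Sparc: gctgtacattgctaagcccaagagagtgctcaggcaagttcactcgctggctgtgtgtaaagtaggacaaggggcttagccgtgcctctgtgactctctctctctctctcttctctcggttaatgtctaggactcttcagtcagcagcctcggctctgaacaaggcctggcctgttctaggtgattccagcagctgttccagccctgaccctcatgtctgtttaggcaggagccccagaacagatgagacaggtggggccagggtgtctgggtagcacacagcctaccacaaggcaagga

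The windows of *Col4a1* and *Col4a2* shared 78 bases, and the annotated starts were 21 bases apart with the 5′ ends of the transcripts overlapping. Whether strand was used in counting is not given in the sources used here, so reads from this short overlap may belong to either gene. Of all 32851 windows in the table, 10.8% overlapped a window of another gene on the opposite strand. The shared bases held 1 CCCTCCCC match and 1 GC box. Positions are counted from each gene's annotated start as 0. The *Col4a2* window held 3 GC boxes in all, at -192, -48 and 7. It also held a CCAAT match at -32, and the *Col4a1* window held one at -145. No match of the 4 motifs overlapped another in these windows.

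Windows were found for 8 of the 10 genes, 9 windows in all since *Col18a1* has a pair, and *Lama4* and *Lamc1* had no entry. A GC box was in 6 of the 9 windows against 35.7% of all windows, and CCAAT was in 5 of 9 against 37.4%. CCCTCCCC was in 3 of 9, those of *Col4a1*, *Col4a2* and *Nid1*, against 10.8%. The *Col4a1* and *Col4a2* matches are the same site, in the bases that their windows share, counted in both windows. The GC box in those shared bases is counted in both windows likewise. Since this run is known from type IV collagen promoters, a match in that pair is no finding. A TATAAA match was in 0 of 9 against 13.6%. The *Hspg2* window held 5 GC boxes, while the windows of *Sparc* and *Col15a1* held no match to any of the 4. The GC content of the windows ran from 52.3% (*Col15a1*) to 74.0% (*Col4a1*), with a median of 52.7% over all windows. A match describes letters in the window and not the binding of a factor.

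Of the 10 genes, 9 were past the fold, a log2 ratio of at least 1, and higher in Cd11c-active, and *Sparc* was not. Among all 13037 genes with at least 20 reads, 23.3% were past the fold and higher in Cd11c-active and 21.6% past it and lower. Among the 4619 genes with at least 1000 reads, where all 10 members lie, the shares were 5.43% and 4.14%. The 9 genes also had widened intervals above 0, as 1.93% of those 4619 genes did while past the fold in this direction. Since these reads chose the members, nothing is read from the counts. The median log2 ratio of the 10 was 4.68, and 4.69 with the genes at 0 reads set to the floor of 3 reads. The median over all genes tested was 0.01.

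**Figure D1:**
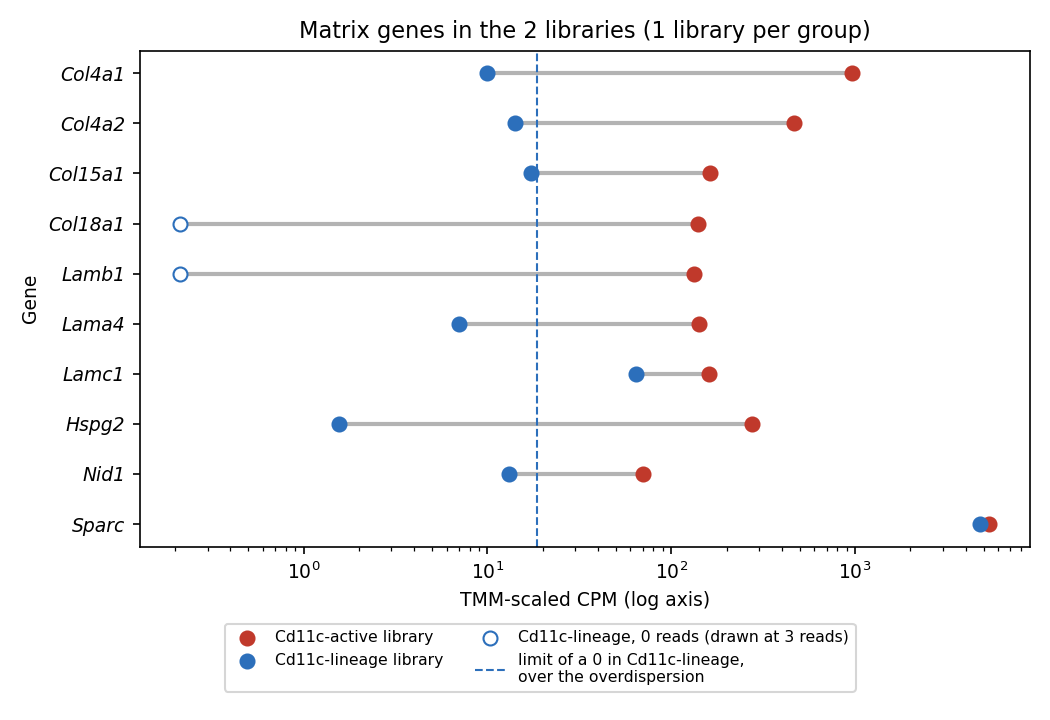
TMM-scaled CPM of each gene (log axis) in the Cd11c-active and Cd11c-lineage libraries, 1 library per group. Open points stand for 0 reads, drawn at 3 reads, and the dashed line is the 18.6 CPM that a 0 in Cd11c-lineage allows over the overdispersion: of the genes other than Sparc, Lamc1 lies above it in Cd11c-lineage and the other 8 lie below.

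The type IV collagen chains form the network that gives the sheet its strength. *Col4a1* (ENSMUSG00000031502), the alpha1 chain, was counted 11927 times in Cd11c-active against 139 times in Cd11c-lineage, which gave 966 and 9.89 CPM. Its log2 ratio was 6.60 (counting interval 6.37 to 6.86, widened 4.40 to 9.34). *Col4a2* (ENSMUSG00000031503), the alpha2 chain, had 5710 and 198 reads, or 462 and 14.1 CPM. The log2 ratio of *Col4a2* was 5.03 (4.83 to 5.25, widened 3.30 to 8.28). Both chains were thus high in Cd11c-active and low in Cd11c-lineage, and their widened intervals overlapped.

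Per length the chains can be set against each other within a library. In Cd11c-active *Col4a1* stood at 146 CPM per kilobase of its longest transcript and *Col4a2* at 71.7. That made *Col4a1* 2.04 times as abundant (widened interval 1.52 to 2.81). With mean transcript length the ratio was 2.65 (widened 1.97 to 3.64). In Cd11c-lineage the ratio on longest transcripts was 0.68 with a widened interval of 0.07 to 13.5, so the order was not resolved there. The factor behind widened intervals was measured between the libraries, so for ratios within a library they are a rough guide only. Type IV collagen of vessels is a trimer with more alpha1 than alpha2 chains, and the transcript ratio is given here as a level only.

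*Col15a1* and *Col18a1* encode the multiplexins, collagens with heparan or chondroitin sulfate chains, and a C-terminal piece of the *Col18a1* product is endostatin. *Col15a1* (ENSMUSG00000028339) had 1998 and 241 reads, or 162 and 17.2 CPM. Its log2 ratio was 3.24 (3.04 to 3.44, widened 1.40 to 5.50). *Col18a1* (ENSMUSG00000001435) was counted 1718 times in Cd11c-active, or 139 CPM, against 0 times in Cd11c-lineage. With the 0 set at a floor of 3 reads, the gene was 652-fold higher in Cd11c-active. The lower end of its widened interval was 5.62-fold. Of the 4619 genes with at least 1000 reads, 6 (0.13%) had 0 reads in Cd11c-lineage, and *Col18a1* and *Lamb1* were among them.

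In Cd11c-active the levels of the multiplexin genes per length were 31.3 CPM per kilobase for *Col15a1* and 24.9 for *Col18a1*, a ratio of 1.26 (widened 0.65 to 2.39). With mean transcript length the ratio was 2.01 (widened 1.05 to 3.82). In Cd11c-lineage the 241 reads of *Col15a1* and the 0 of *Col18a1* were both within the 262 reads that a 0 allows, so they could not be told apart there. The 4 collagens together gave 21353 against 578 reads, a log2 ratio at 5.39 (widened 4.25 to 6.64).

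The 3 laminin genes encode the alpha4, beta1 and gamma1 chains, which together form a laminin of vessel walls. *Lama4* (ENSMUSG00000019846) had 1740 and 98 reads, or 141 and 6.97 CPM, and a log2 ratio of 4.33 (4.04 to 4.65, widened 1.86 to 9.88). *Lamb1* (ENSMUSG00000002900) had 1640 and 0 reads, or 133 and 0 CPM. It was 622-fold higher in Cd11c-active with the 0 set at the floor of 3 reads, and 5.31-fold at the lower end of the widened interval. *Lamc1* (ENSMUSG00000026478), whose gamma1 chain is shared by most laminins, had 1990 and 907 reads, or 161 and 64.6 CPM. The log2 ratio of *Lamc1* was 1.32 (1.21 to 1.44, widened 0.26 to 2.62), the lowest of the 9 genes other than *Sparc*. Its widened interval met that of *Lama4* and of *Lamb1* (lower end 2.41), and no test of the difference was made.

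In Cd11c-active the levels of the 3 laminin chains per length were 23.3 CPM per kilobase for *Lama4*, 23.0 for *Lamb1* and 21.1 for *Lamc1*. The ratio of *Lamc1* to *Lama4* was 0.91 (widened 0.48 to 1.75). With mean transcript length it turned to 1.34 (widened 0.71 to 2.59), so the order of the chains was not resolved. In Cd11c-lineage *Lamc1* stood at 8.47 and *Lama4* at 1.15 CPM per kilobase, a ratio of 7.34 (widened 1.13 to 344), with *Lamb1* at 0. *Lamc1* was the one gene of the 9 whose Cd11c-lineage reads exceeded the 262 that a 0 allows. The widened intervals of this ratio in the 2 libraries overlapped, and their difference was not tested.

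*Hspg2* (ENSMUSG00000028763) encodes perlecan, which binds growth factors through its heparan sulfate chains. The gene had 3409 and 22 reads, or 276 and 1.57 CPM. The log2 ratio was 7.43 (6.86 to 8.14), with a widened lower end of 3.52 and no upper end. Its longest transcript, of 14187 bases, is the longest of the 10 genes, and per length *Hspg2* stood at 19.5 CPM per kilobase in Cd11c-active, or 28.4 with mean transcript length. *Nid1* (ENSMUSG00000005397), the linker between the laminin and collagen networks, had 869 and 185 reads, or 70.4 and 13.2 CPM. The log2 ratio of *Nid1* was 2.42 (2.19 to 2.66, widened 0.28 to 5.74), and at 11.6 CPM per kilobase it had the lowest level of the 10 genes in Cd11c-active.

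**Figure D2:**
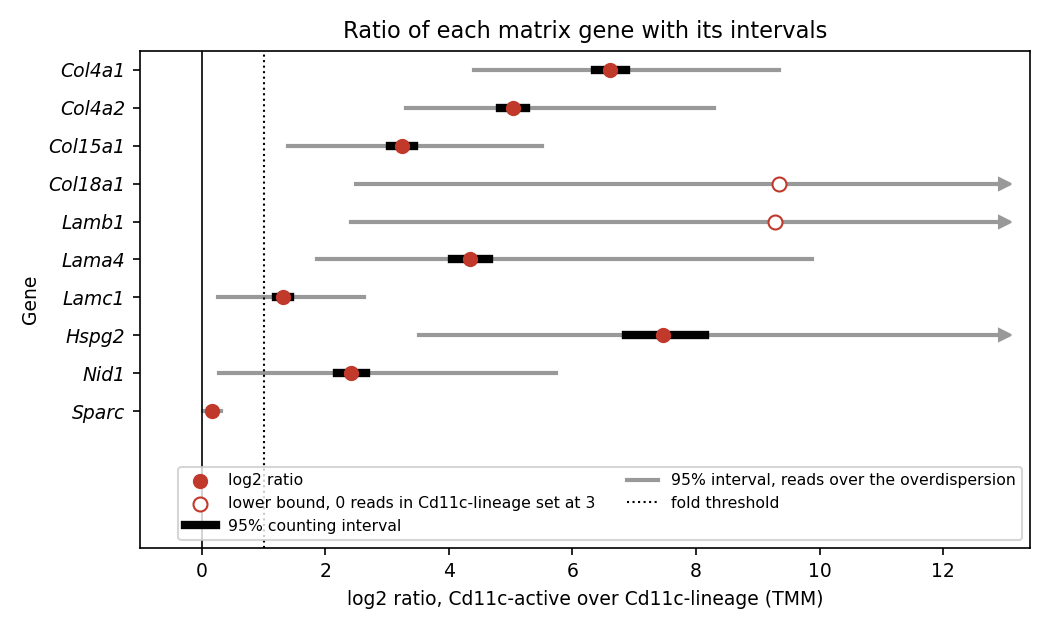
Log2 ratio of each gene, Cd11c-active over Cd11c-lineage, with its 95% counting interval (black) and widened interval (grey, arrows where it has no upper end), 1 library per group. Open points are lower bounds for Col18a1 and Lamb1, which had 0 reads in Cd11c-lineage; Sparc lies at 0.17 and the other genes lie at or above 1.32.

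*Sparc* (ENSMUSG00000018593) encodes a secreted glycoprotein that binds collagen, type IV collagen included. Its reads numbered 66324 (Cd11c-active) against 67168 (Cd11c-lineage), which gave 5372 against 4780 CPM. Per length *Sparc* ranked 13 in Cd11c-active and 10 in Cd11c-lineage among the 13499 genes with a known length. The log2 ratio was 0.17 (0.15 to 0.18, widened 0.02 to 0.31). With the overdispersion of its own read range, 172, the widened interval ran from -0.04 to 0.37 and held 0. Scaled to library totals the ratio was 0.03, the value that the authors' deposited table also gives.

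*Sparc* had the highest level of the 10 genes in both libraries and the log2 ratio nearest to 0, although its widened interval overlapped those of *Lamc1* and *Nid1*. The 9 together gave 31001 against 1790 reads (2511 against 127 CPM), with the log2 ratio of the sum at 4.30 (4.23 to 4.37, widened 3.69 to 5.07). Without *Col4a1* the sum gave 3.72 (widened 3.03 to 4.47). With *Sparc* included the sum gave 0.68 (widened 0.55 to 0.82). Per length *Sparc* was 15.99 times as abundant as *Col4a1* in Cd11c-active (widened 13.3 to 19.3) and 1390 times in Cd11c-lineage (widened 305 to 9148). With mean transcript length these ratios were 9.28 (widened 7.70 to 11.2) and 806 (widened 177 to 5307).

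The makeup of the 9-gene sum also differed in the 2 libraries. *Col4a1* contributed 38.5% of it in Cd11c-active but 7.77% in Cd11c-lineage. *Lamc1* gave 6.42% and 50.7%. In Cd11c-lineage each gene other than *Lamc1* was within the reads that a 0 allows, so the order of the other 8 was not detectable there. Per length in Cd11c-active the order was *Col4a1*, *Col4a2*, *Col15a1*, *Col18a1*, *Lama4*, *Lamb1*, *Lamc1*, *Hspg2* and *Nid1*, with neighbours from *Col18a1* to *Hspg2* between 24.9 and 19.5 CPM per kilobase. With mean in place of longest transcript length the order between *Col15a1* and *Hspg2* became *Lamc1* (71.8), *Lama4* (53.5), *Lamb1* (51.7) and *Col18a1* (41.3 CPM per kilobase).

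**Figure D3:**
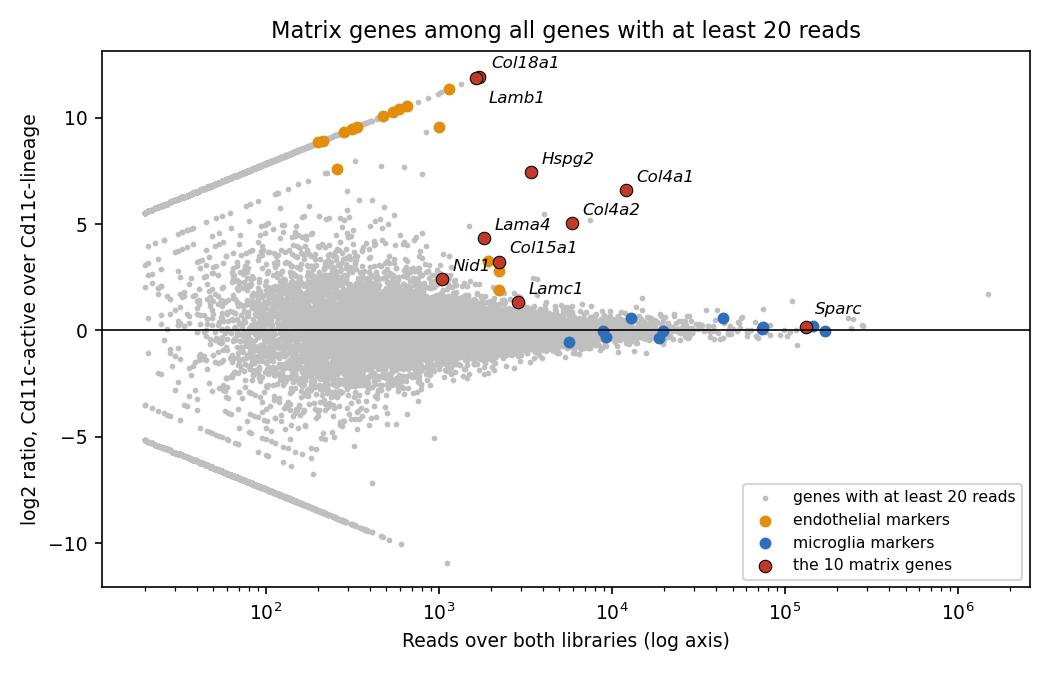
Log2 ratio against reads over both libraries (log axis) for the genes with at least 20 reads, with the 10 matrix genes, the 15 endothelial markers and the 11 microglia markers in colour. The diagonal edges are genes with 0 reads in either library, whose ratios depend on the 0.5 reads added; Sparc, at 0.17, lies among the microglia markers and the other matrix genes lie above the bulk of genes with as many reads.

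The genes most like *Col4a1* were those nearest in the plane of log2 CPM in both libraries, among genes with at least 1000 reads. In order they were a gene without a symbol and of microRNA biotype (ENSMUSG00002075501, 7243 against 227 reads), *Col4a2*, *Cd93*, *Col15a1* and *Lama4*, at distances from 1.01 to 2.82. Whether the gene without a symbol overlaps another gene is not given in the sources used here, so its reads may belong to another gene. *Cd93*, a glycoprotein of endothelial and myeloid cells, had 3986 and 100 reads. Members among these neighbours are no finding, since the same values chose them. Genes near *Sparc* by the same measure included *Mpeg1*, *Eef1a1*, *Ctss* and *Csf1r*, at distances from 0.18 to 0.53, and the log2 ratios of these 4 lay between -0.06 and 0.06. *Csf1r* is a microglia marker, and *Mpeg1* encodes perforin-2 of macrophages.

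Other basement membrane genes were looked at as a list of 29, of which 14 were in the table and 13 had at least 20 reads. Of the 13, 9 were past the fold and higher in Cd11c-active (8 on library totals) and 1 lower, beside 23.3% and 21.6% of all genes. The median was 1.69 beside 0.01 over all genes. *Npnt*, the integrin ligand nephronectin, led this list by reads and had 3177 and 4363 reads, with a log2 ratio at -0.27 (widened -0.95 to 0.36). *Fn1*, fibronectin, had 4586 and 2197 reads and 1.25 (widened 0.56 to 2.02). *Agrn*, the heparan sulfate proteoglycan agrin, had 1232 and 433 reads and 1.69 (widened 0.12 to 3.5). *Nid2*, the paralogue of *Nid1*, had 1749 and 965 reads and 1.04 (widened -0.08 to 2.26), which was 0.91, under the fold, on library totals.

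Of 8 measured matrix-binding genes besides *Sparc*, 4 were past the fold and higher in Cd11c-active and 2 lower, with a median of 1.04, beside 23.3% and 21.6% of all genes. *Sparcl1*, the closest relative of *Sparc*, had 1809 and 0 reads. With the 0 set at the floor of 3 reads it was 686-fold higher in Cd11c-active. The lower end of its widened interval was a log2 ratio of 2.57. *Spock2*, testican-2 of the same family, had 1440 and 54 reads, with a log2 ratio at 4.91 (widened 1.5 to 9.58). *Spp1*, osteopontin, had 2721 and 2138 reads and 0.53 (widened -0.26 to 1.39).

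Of 19 measured genes that fold, modify and crosslink collagen, 13 were within the fold, 5 higher in Cd11c-active and 1 lower (2 on library totals), with a median of 0.38. Among all genes 23.3% were higher and 21.6% lower. *P4hb*, a prolyl hydroxylase subunit, had 9408 and 6917 reads (log2 ratio 0.63, widened 0.21 to 1.08). *Plod1* and *Colgalt1*, which modify collagen lysines, had log2 ratios of 0.12 (widened -0.46 to 0.72) and 0.04 (widened -0.68 to 0.79). *Pxdn*, the peroxidase that crosslinks type IV collagen, had 929 and 172 reads and 2.62 (widened 0.45 to 5.86).

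Heparan sulfate enzymes, which build the chains of perlecan, had 12 of 18 within the fold, 5 higher and 1 lower, with a median of 0.43, beside 23.3% higher and 21.6% lower among all genes. *Extl3* had 3700 and 3278 reads (log2 ratio 0.36, widened -0.34 to 1.0), *Ndst1* 3699 and 2794 (0.59, widened -0.12 to 1.29) and *Hs6st1* 2032 and 1975 (0.23, widened -0.71 to 1.09). *Ext1*, a polymerase subunit, had 1064 and 472 reads and 1.36 (widened -0.16 to 3.31).

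Receptors and uptake genes for this matrix were within the fold in 11 of 13, with 1 in each direction past it (2 lower on library totals) and a median of -0.12. Among all genes 23.3% were past the fold and higher and 21.6% lower. *Itgb5*, an integrin chain, had 21441 and 25661 reads (log2 ratio -0.07, widened -0.33 to 0.17). *Itga6*, part of the laminin receptors, had 9244 and 12505 reads (-0.25, widened -0.62 to 0.13). *Stab1*, stabilin-1, which takes up the Sparc protein, had 19330 and 18987 reads (0.21, widened -0.06 to 0.49). *Itga9* had 831 and 1915 reads and was past the fold at -1.02 (widened -2.19 to 0.19).

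Matrix proteases and inhibitors had 9 of 18 within the fold, 6 higher in Cd11c-active, 3 lower and a median of 0.03, beside 23.3% higher and 21.6% lower among all genes. *Ctsb*, *Ctss* and *Ctsl*, the 3 genes of this list with the most reads, all cathepsins, had log2 ratios of 0.55 (widened 0.44 to 0.66), -0.06 (widened -0.22 to 0.11) and -0.07 (widened -0.29 to 0.15). The 8 measured collagens outside the basement membrane members had 5 past the fold and lower in Cd11c-active and 1 higher, beside the same 21.6% and 23.3%. Their median was -4.00, or -3.20 with genes at 0 reads set to the floor. *Col2a1* had 24 and 919 reads (log2 ratio -5.04, widened upper end -1.14), *Col7a1* 27 and 243 (-2.96, widened upper end 1.46) and *Col27a1* 971 and 1238 (-0.16, widened -1.44 to 1.08). *Col9a1*, *Col25a1* and *Col14a1*, the other genes lower, had 0 reads in Cd11c-active and widened intervals that held 0, as did that of *Col7a1*. None of the 6 fibroblast markers, *Col1a1* and *Col1a2* included, was among the genes analysed here.

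**Figure D4:**
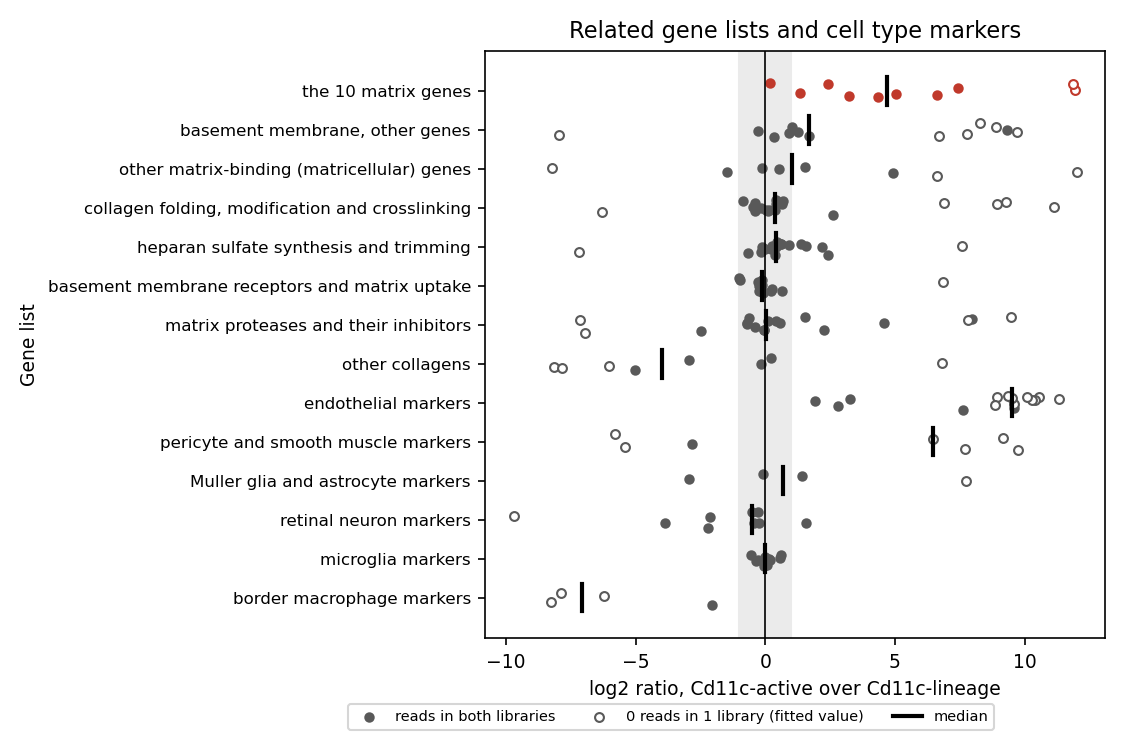
Log2 ratio of each measured gene in the 10 matrix genes and in related lists (reads in both libraries filled, 0 reads in either library open), with each list's median as a bar and the 2-fold band shaded. The endothelial markers all lie above the band and the microglia markers all lie within it.

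Markers of other cell types differed in direction. All 15 endothelial markers were past the fold and higher in Cd11c-active, as 14.1% of all genes with at least 200 reads were. In Cd11c-lineage 10 of the 15, with *Cldn5*, *Flt1*, *Tek* and *Vwf* among them, stood at 0 reads, as 1.23% of those genes did. Together they gave 11397 against 1037 reads (923 against 73.8 CPM), a log2 ratio at 3.64 (widened 2.77 to 4.61) beside 4.30 for the 9 matrix genes. The fitted median, 9.50, was 7.0 with genes at 0 reads set to the floor. In Cd11c-active the marker reads ranged from 202 to 1926, and the leading markers were *Kdr* (1926 and 311 reads, log2 ratio 2.82, widened 1.09 to 4.64), *Pecam1* (1725 and 523, 1.91, widened 0.56 to 3.53) and *Cdh5* (1719 and 201, 3.28, widened 1.47 to 6.65). Without *Pecam1*, which myeloid cells also express, the sum gave 4.42 (widened 3.23 to 5.87). The widened intervals of *Plvap*, *Emcn*, *Erg*, *Egfl7*, *Sox18* and *Sox17* held 0, with lower ends between -2.23 and -0.41. Those of the other endothelial markers lay above 0.

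Of 11 pericyte and smooth muscle markers 8 were in the table and together gave 790 against 180 reads, a log2 ratio at 2.32 (widened 0.08 to 5.61), and 5 had 0 reads in Cd11c-lineage while 2 had 0 in Cd11c-active. Of the 7 with at least 20 reads, 4 were past the fold and higher in Cd11c-active and 3 lower, beside 23.3% and 21.6% of all genes. Those with the most reads were *Cspg4* (380 against 0), *Rgs5* (253 against 0) and *Anpep* (15 against 125), and all 3 had widened intervals that held 0. The 11 microglia markers summed to 283273 and 301583 reads, with a log2 ratio at 0.10 (widened 0.03 to 0.17). The 4 Muller glia and astrocyte markers summed to 27983 and 33953, almost all of it *Glul* (27773 and 33293), a ratio of -0.09 (widened -0.31 to 0.12). The other 3 were *Slc1a3* (73 against 642 reads), *Rlbp1* (94 against 0) and *Sox9* (43 against 18). The 9 retinal neuron markers summed to 1689 and 3339 reads (-0.80, widened -1.69 to 0.02) and the 4 border macrophage markers to 262 and 1582 (-2.41, widened -4.80 to -0.62). The endothelial markers were thus higher in the same library as the 9 matrix genes. The pericyte markers were split by gene, each with a widened interval that held 0, and their sum was higher in Cd11c-active. The part of either marker set in the matrix result was not tested.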

How the data were processed

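Bulk RNA was sequenced from 2 sorted pools of retinal cells, 1 library each. The authors deposited raw counts per gene, whole numbers without normalization per the file headers, and their own log2 fold change, quoted only where named. Per the submitters' processing notes, cutadapt 3.5, STAR 2.7.9a, featureCounts 1.6.3 and edgeR 4.0.16 were used with GRCm39. Annotation, strand setting and duplicate handling are not given in the sources used here, so reads of overlapping genes may be shared or dropped. The smallest sum in the table was 6 reads. Columns of other samples numbered 0.

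Libraries were scaled by TMM (edgeR 4.0.16, R 4.3.3; factors 0.954 for Cd11c-active and 1.05 for Cd11c-lineage), which moved every log2 ratio up by 0.14 against library totals. With 1 library per group no quasi-likelihood or DESeq2 fit could be made, and no p-value is given. Overdispersion was the robust variance of log2 ratios over the counting variance; widened intervals are exact Clopper-Pearson intervals on divided, rounded reads. Overdispersion was 85.6 to 88.2 from 200 to 3199 reads, 107 from 3200 to 6399 and 172 above, so widened intervals are too narrow for *Col4a1*, *Col4a2*, *Hspg2* and *Sparc*. With the values of their own ranges the lower ends of the members just named were 3.77, 2.99, 3.22 and -0.04. Without molecular identifiers, reads cannot be taken for independent molecules. Lengths are those of the longest transcript in GENCODE M21 (GRCm38), which matched 13499 genes (99.6%). Its build differs from that of the counts, and the only coordinates given are those of the RefSeq promoter windows, in GRCm38.p6. Per-length ratios on mean transcript length and shares at 200 reads were added after seeing the data. Scripts were tested on simulated data and run in Python 3.11.15 (scipy 1.17.1 for intervals, matplotlib 3.10.9 for figures).

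Members, gene lists and markers were chosen with earlier results of these data known. In each list the 3 genes with the most reads were named, and up to 4 past the fold with at least 1000 reads. For *Col4a1* and *Sparc* the 5 nearest genes were taken, of which 1 is not reported here. Of the cell type markers the sums and a few genes are given.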

Additional observations from a re-analysis of the deposited data

How the results depend on the processing

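The count of 9 members past the fold was the same under library totals, relative log expression factors, removal of ribosomal, mitochondrial, 7SK and 7SL genes, other read minimums, 5 reads added and division by the overdispersion. At a fold threshold of log2 ratio 2 the count was 8, without *Lamc1*, and the shares of all genes were 15.3% higher and 14.2% lower. At the main threshold of log2 ratio 1, with a minimum of 1000 reads, the shares of all genes were 5.43% and 4.14%. The median of the members was 4.43 on reads divided by the overdispersion and 5.03 without *Sparc*, an alternative chosen after seeing the data. The log2 ratio of the summed reads was 0.55 under library totals and 4.30 without *Sparc*. No log2 ratio of a single member changed sign. *Lamc1* stayed between 1.18 and 1.35 and *Sparc* between 0.03 and 0.17, while those of *Col18a1* (5.54 to 11.9) and *Lamb1* (5.47 to 11.9) were lowest on reads divided by the overdispersion and were 8.62 and 8.55 with 5 reads added. Mean in place of longest transcript length raised the level per length over 1.5 times for 9 members and changed their order, to 451 CPM per kilobase for *Col4a1* and 4185 for *Sparc*. No paired analysis was possible because each group had 1 library, and for the same reason none could be left out. Over the overdispersion, Cd11c-lineage values under 262 reads are without order.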

Other observations

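Within the related lists several genes had reads in Cd11c-active and 0 or 1 in Cd11c-lineage, and they are named here after their values were seen. *Serpinh1*, the chaperone that binds procollagen in the endoplasmic reticulum, had 994 and 0 reads. With the 0 set at the floor of 3 reads it was 377-fold higher in Cd11c-active. *P4ha2*, a prolyl hydroxylase subunit, had 276 and 0 reads, and *Fkbp10*, a collagen chaperone, had 216 and 0. *Bmp1*, the protease that trims procollagens, had 327 and 1 reads, with a log2 ratio at 7.96 (counting interval 6.05 to 13.8). *Vwa1*, a protein that binds perlecan, had 849 and 1 reads and 9.33 (7.43 to 15.2). Of these 5 genes, *Serpinh1* and *Vwa1* had widened intervals above 0, with lower ends of 1.51 and 1.35. *P4ha2*, *Fkbp10* and *Bmp1* did not. The same lists held genes with 0 reads in Cd11c-active, among them *Postn* (0 and 170), *Frem1* (0 and 143), *Hs3st1* (0 and 82), *Mmp9* (0 and 81), *Adamts5* (0 and 71) and *P3h4* (0 and 44), and the widened intervals of these 6 held 0.

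Of the laminin chains outside the members, *Lamb2*, the beta2 chain, had 1117 and 996 reads, with a log2 ratio at 0.35 (widened -0.85 to 1.73), where *Lamb1* had 1640 and 0. *Lama5* had 209 and 0 reads, which was within what a 0 allows over the overdispersion. *Lama1* had 92 and 56 reads and *Lamc3* 45 and 0. The widened intervals of these 4 chains overlapped, and differences between them were not tested.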
